A study of Mus musculus with 4 samples.

Results

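The dual-specificity MAP kinase phosphatases (MKPs) described here are Dusp1, Dusp2, Dusp4, Dusp5, Dusp6, Dusp7, Dusp10 and Dusp16. These genes were chosen with earlier results of these data known. Every gene probe of the array carrying one of these 8 symbols was taken, which gave 10 probes among 55681. Dusp7 and Dusp16 had 2 probes each. The 8 genes are among 22969 genes or transcripts that were well above background on at least 1 array, and 9 of the 10 probes were well above background on every array.

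RNA was measured in LSK cells, the lineage-negative, Sca-1-positive, cKit-positive fraction of mouse bone marrow that holds blood stem cells and early progenitors. The 4 genotypes were Aspp1-/-p53-/- (from Mx1-Cre(+)Aspp1-/-p53flox/flox mice), p53-/- (from Mx1-Cre(+)p53flox/flox mice), Aspp1-/- and WT. All mice were male, 12 weeks old and of C57BL/6 background. All of them, WT included, had been injected with pIpC 5 times from 8 weeks of age, and cells were taken 4 weeks later. pIpC is a double-stranded RNA that induces interferon and thereby the Mx1 promoter, so it switches on Cre only in the mice that carry it. The design states 400 µg, while the samples' own dose entries read 403 µg for Aspp1-/-p53-/-, 402 µg for p53-/-, 401 µg for Aspp1-/- and 400 µg for WT. Aspp1 (gene symbol Ppp1r13b) is a partner protein of the tumour suppressor p53 (gene symbol Trp53).

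RNA of 3 mice was pooled per genotype and hybridised to 1 array, so there is no spread between mice, and the difference between 2 genotypes has no test. A difference is given on the log2 scale, as the signal of the first genotype minus that of the second, each after division by its own array's 75th percentile. A gene is said to have fallen or risen where the difference reached 1 in size, which is 2-fold. The scanner's own error estimate, about 0.20 for a difference, is used as a second yardstick. It covers measurement of the spots only, not mice, pools or labelling. Fewer cells of a type and less RNA per cell cannot be told apart in such bulk samples.

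MKPs remove phosphate from both the threonine and the tyrosine of the activation loop of MAP kinases and so switch ERK, JNK and p38 off. Many of them are transcribed in response to the same kinases, which makes them a negative feedback on the pathway. The nuclear, inducible class comprises Dusp1 (MKP-1), Dusp2 (PAC-1), Dusp4 (MKP-2) and Dusp5. The cytoplasmic, ERK-selective class comprises Dusp6 (MKP-3) and Dusp7 (MKP-X), and Dusp10 (MKP-5) and Dusp16 (MKP-7) prefer JNK and p38. In human cells DUSP1, DUSP2, DUSP4 and DUSP5 have been reported as p53 targets.

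The promoters of 4 members are shown because these genes gave the most and the least different signals among the arrays and carry different response elements. Each sequence is the 250 bases before the RefSeq gene start in GRCm38.p6, read along the gene's strand. Capitals mark matches on either strand to the cAMP response element (CRE, TGACGTCA) or its core (short CRE, TGACG), to the CArG box, the site of serum response factor with CC and GG around A and T letters, or to the EGR site GCGGGGGCG.
Dusp5: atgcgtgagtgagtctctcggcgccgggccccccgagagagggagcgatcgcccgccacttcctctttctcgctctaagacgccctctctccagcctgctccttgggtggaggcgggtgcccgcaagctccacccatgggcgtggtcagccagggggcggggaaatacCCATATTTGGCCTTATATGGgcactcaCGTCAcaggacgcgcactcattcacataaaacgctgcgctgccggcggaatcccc
Dusp10: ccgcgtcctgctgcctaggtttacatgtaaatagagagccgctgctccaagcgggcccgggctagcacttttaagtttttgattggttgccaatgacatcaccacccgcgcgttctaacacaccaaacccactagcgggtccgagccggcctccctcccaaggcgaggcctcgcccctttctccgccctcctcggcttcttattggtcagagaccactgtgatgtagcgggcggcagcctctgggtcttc
Dusp1: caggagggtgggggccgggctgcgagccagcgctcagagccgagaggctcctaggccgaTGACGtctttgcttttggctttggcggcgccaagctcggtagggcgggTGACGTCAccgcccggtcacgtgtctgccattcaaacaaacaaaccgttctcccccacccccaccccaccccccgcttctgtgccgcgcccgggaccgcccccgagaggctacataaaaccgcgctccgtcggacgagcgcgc
Dusp2: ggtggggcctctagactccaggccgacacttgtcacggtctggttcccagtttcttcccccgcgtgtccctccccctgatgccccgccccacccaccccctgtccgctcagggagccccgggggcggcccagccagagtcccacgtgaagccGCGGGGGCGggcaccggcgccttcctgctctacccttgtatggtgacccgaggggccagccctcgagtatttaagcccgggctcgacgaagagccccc
The Dusp5 sequence is that of chr19:53528895-53529144 on the plus strand, Dusp10 that of chr1:184034131-184034380 on the plus strand, Dusp1 that of chr17:26508473-26508722 on the minus strand and Dusp2 that of chr2:127335909-127336158 on the plus strand. Positions below count back from the gene start. Dusp5 has a pair of adjacent CArG boxes, at -82 to -73 and at -72 to -63, and a short CRE on the opposite strand at -55 to -51. Dusp1 has a full CRE at -143 to -136 and a further short CRE at -191 to -187. Dusp2 has an EGR site at -98 to -90, which overlaps a match to the SP1 site GGGCGG. The upstream sequence of Dusp10 holds none of these letters apart from matches to SP1.

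Over the full windows of 300 bases, which run 50 bases past the start, the shares among 32851 RefSeq promoters were 1.79% for the CRE, 20.8% for the short CRE, 1.63% for the CArG box, 2.91% for the EGR site and 35.7% for SP1. Of the 7 members with a promoter sequence, 1 had the CRE (Dusp1), 4 the short CRE (Dusp1, Dusp2, Dusp5 and Dusp16), 1 the CArG box (Dusp5), 1 the EGR site (Dusp2) and 6 an SP1 match. The AP-1 site TGANTCA, present in 7.81% of promoters, was found in 0 of the 7. A match is a stretch of letters and was not tested as a binding site.

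The arrays were alike in quality. Between 50.3% and 53.3% of probes were well above background, no gene spot was saturated, and the 75th percentile of the signal lay between 469 and 523. All arrays were on 1 slide and scanned on 1 day. The Aspp1-/-p53-/- and p53-/- arrays lay in the second row of the slide and the Aspp1-/- and WT arrays in the first, so loss of p53, presence of Mx1-Cre and slide row cannot be told apart, whereas Aspp1-/-p53-/- against p53-/- and Aspp1-/- against WT were each within a row. The targeted genes followed the labels. Ppp1r13b gave signals of 2060 in Aspp1-/-p53-/-, 12759 in p53-/-, 2247 in Aspp1-/- and 13182 in WT cells, and Trp53 gave 169, 164, 820 and 730 in the same order. All 8 LSK markers listed were above background on every array, with a median difference from WT of -0.01 in Aspp1-/-p53-/-, 0.05 in p53-/- and 0.03 in Aspp1-/- cells. All 9 granulocyte markers were also above background on every array, with summed signals of 28955 in Aspp1-/-p53-/-, 81504 in p53-/-, 81502 in Aspp1-/- and 89684 in WT cells.

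Dusp5 and Dusp10 fell most, and both were lowest in Aspp1-/-p53-/- cells. Dusp5 was 4.37-fold and Dusp10 3.67-fold lower there than in WT cells. Dusp1, Dusp4, Dusp6 and Dusp16 were lower by more than 2 scanner errors but by less than 2-fold, and Dusp2 and Dusp7 differed by less than 2 scanner errors in every comparison.

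**Figure D1:**
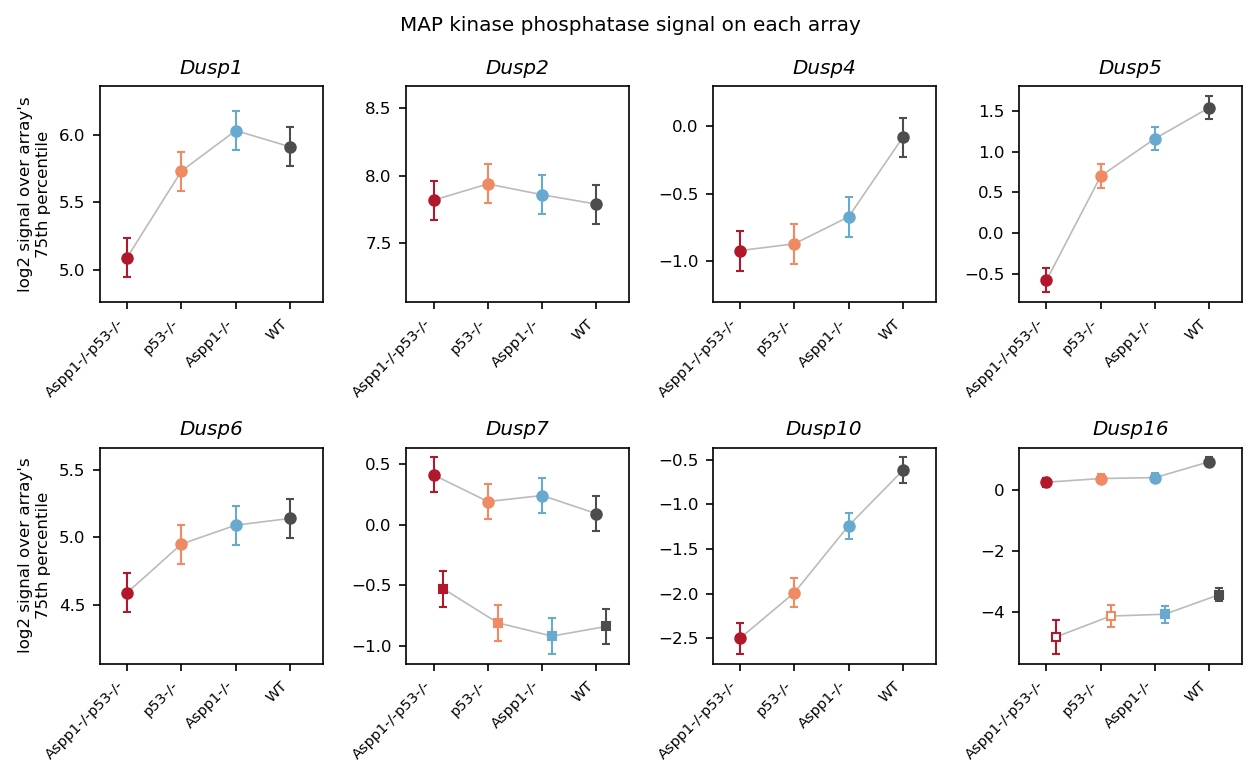
Log2 signal of each phosphatase relative to the array's 75th percentile (vertical axis, a separate range for each gene of at least 1.6 log2 units) on the Aspp1-/-p53-/-, p53-/-, Aspp1-/- and WT arrays (left to right). Points are single arrays of RNA pooled from 3 mice, bars are the scanner's error, squares are second probes and open symbols are not well above background. Dusp5 and Dusp10 span 2.13 and 1.88 log2 units, Dusp2 spans 0.14.

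Among the nuclear inducible phosphatases, Dusp5, which acts on ERK, gave processed signals of 313 in Aspp1-/-p53-/-, 832 in p53-/-, 1166 in Aspp1-/- and 1464 in WT cells. Relative to each array's 75th percentile these were -0.58, 0.70, 1.16 and 1.54 on the log2 scale. The double mutant stood apart at the low end, and each single mutant lay between it and WT. The difference from WT was -2.13 in Aspp1-/-p53-/-, -0.85 in p53-/- and -0.39 in Aspp1-/- cells, and only the first passed 2-fold. Dusp5 also fell in Aspp1-/-p53-/- cells against each single mutant, with differences of -1.28 (2.43-fold lower) against p53-/- and -1.74 (3.34-fold lower) against Aspp1-/-. Of 19423 genes measured on both the Aspp1-/-p53-/- and WT arrays, 47 (0.242%), Dusp5 included, had a difference as low or lower than that of Dusp5, 4 of them among the 1943 genes of similar brightness. The Dusp5 probe is at chr19:53615682-53615741 on the plus strand in mm9.

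Dusp1, which inactivates p38, JNK and ERK and is an immediate-early gene, was bright on every array. Its signals were 15931 in Aspp1-/-p53-/-, 27159 in p53-/-, 34219 in Aspp1-/- and 30152 in WT cells. The double mutant alone was low, while the other 3 arrays were close together. The difference from WT was -0.82 in Aspp1-/-p53-/-, -0.18 in p53-/- and 0.12 in Aspp1-/- cells. Against p53-/- it was -0.64 in Aspp1-/-p53-/- cells, a value that 10 of the 1928 genes of similar brightness, Dusp1 included, reached. Against Aspp1-/- it was -0.95 (1.93-fold lower), just short of 2-fold. The promoter with the full CRE shown above is that of this gene. Its probe is at chr17:26642526-26642536 on the minus strand in mm9 as the file gives it.

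Dusp4, a nuclear phosphatase of ERK and JNK, was dim, with signals of 247 in Aspp1-/-p53-/-, 280 in p53-/-, 328 in Aspp1-/- and 474 in WT cells. Here the WT array stood apart at the high end and the 3 mutants lay together. The differences from WT were -0.84 in Aspp1-/-p53-/-, -0.79 in p53-/- and -0.59 in Aspp1-/- cells, each more than 2 scanner errors, whereas Aspp1-/-p53-/- differed from p53-/- by -0.05 and from Aspp1-/- by -0.25. The probe is at chr8:35882045-35882104 on the plus strand.

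Dusp2, first described in activated T cells and selective for ERK and p38, gave signals of 106313 in Aspp1-/-p53-/-, 125421 in p53-/-, 121861 in Aspp1-/- and 111229 in WT cells. Its 5 differences lay between -0.11 and 0.14, all within 1 scanner error of 0. None of the 4 arrays was saturated at this probe, which is at chr2:127163930-127163989 on the plus strand.

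Of the cytoplasmic ERK-selective phosphatases, Dusp6 gave signals of 11300 in Aspp1-/-p53-/-, 15829 in p53-/-, 17816 in Aspp1-/- and 17731 in WT cells. Relative to the 75th percentile it was 4.59, 4.95, 5.09 and 5.14, so that the double mutant was low and the other arrays were close together. The difference from WT was -0.55 in Aspp1-/-p53-/-, -0.19 in p53-/- and -0.05 in Aspp1-/- cells. The differences of Aspp1-/-p53-/- from Aspp1-/- (-0.50) and from WT exceeded 2 scanner errors, and that from p53-/- (-0.36) did not. The probe is at chr10:98729985-98730044 on the plus strand.

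Dusp7 gave signals of 623 in Aspp1-/-p53-/-, 585 in p53-/-, 618 in Aspp1-/- and 533 in WT cells. Its second probe, which overlaps the first, gave 324, 292, 276 and 280 in the same order. Both probes were slightly brighter in Aspp1-/-p53-/- than in WT cells, by 0.32 and 0.31, which is less than 2 scanner errors. The single mutants differed from WT by 0.11 (p53-/-) and 0.15 (Aspp1-/-) at the first probe and by 0.03 and -0.08 at the second. The probes are at chr9:106277985-106278044 and chr9:106277943-106278000 on the plus strand.

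Of the phosphatases that prefer JNK and p38, Dusp10 gave signals of 83.1 in Aspp1-/-p53-/-, 129 in p53-/-, 222 in Aspp1-/- and 327 in WT cells. The arrays were evenly spread, and each genotype differed from its neighbour in this order by at least 0.51 on the log2 scale. Dusp10 fell in both genotypes without p53, with differences from WT of -1.88 (3.67-fold lower) in Aspp1-/-p53-/- and -1.37 (2.58-fold lower) in p53-/- cells. The difference of Aspp1-/- from WT was -0.62 (1.54-fold lower), more than 2 scanner errors but short of 2-fold. Dusp10 fell by 1.26 (2.39-fold) in Aspp1-/-p53-/- cells relative to Aspp1-/-, and the difference from p53-/- was -0.51. Of 19423 genes, 67 (0.345%), Dusp10 included, had a difference of Aspp1-/-p53-/- from WT as low or lower, 16 of them among the 1942 genes of similar brightness. With normexp background correction, which adds an offset of 50 to every signal, the differences of Dusp10 shrank to -1.33 in Aspp1-/-p53-/- and -1.07 in p53-/- cells against WT and to -0.85 in Aspp1-/-p53-/- against Aspp1-/- cells, and the last no longer reached 2-fold. The probe is at chr1:185898608-185898667 on the plus strand.

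Dusp16, a JNK phosphatase that shuttles between nucleus and cytoplasm, gave signals of 555 in Aspp1-/-p53-/-, 659 in p53-/-, 683 in Aspp1-/- and 946 in WT cells. WT was high and the 3 mutants lay together. The differences from WT were -0.67 in Aspp1-/-p53-/-, -0.55 in p53-/- and -0.53 in Aspp1-/- cells, each more than 2 scanner errors. The second Dusp16 probe was near background, with 16.6 in Aspp1-/-p53-/- and 29.0 in p53-/- cells (neither well above background), 30.8 in Aspp1-/- and 46.2 in WT cells. It was highest in WT too. The probes are at chr6:134665783-134665842 and chr6:134668003-134668062 on the minus strand.

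**Figure D2:**
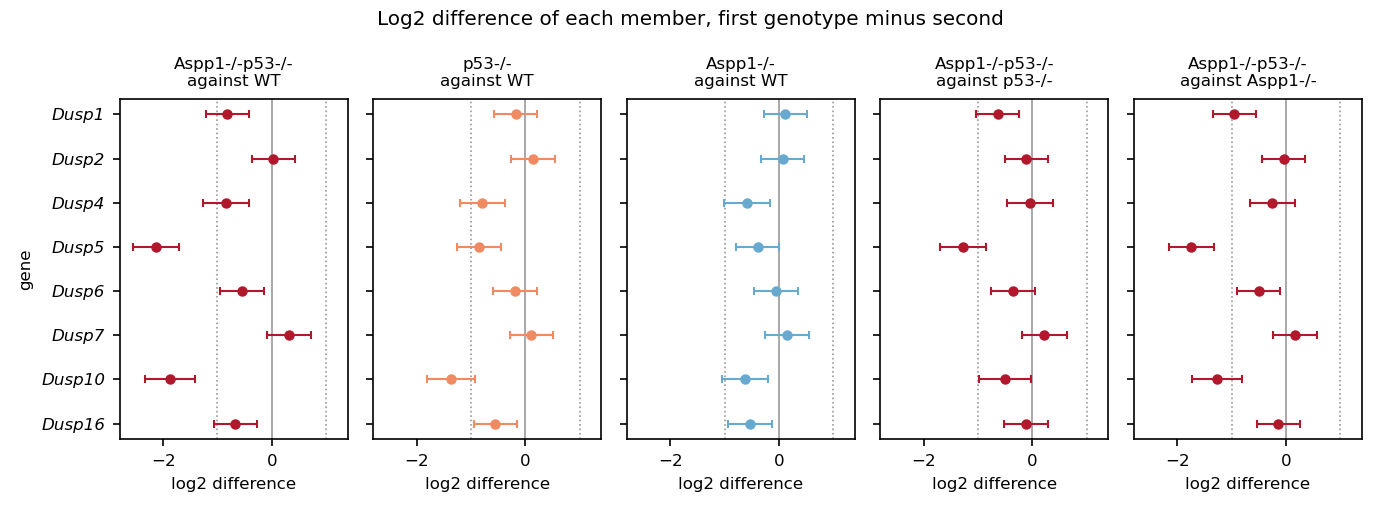
Log2 difference of each phosphatase (horizontal axis) in 5 comparisons, the first named genotype minus the second. Points are differences of 2 single arrays, bars are 2 scanner errors and dotted lines mark 2-fold. Dusp5 and Dusp10 lie past the left line in Aspp1-/-p53-/- against WT, Dusp10 in p53-/- against WT and no member in Aspp1-/- against WT.

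Counted over the 8 phosphatases, 2 fell at least 2-fold in Aspp1-/-p53-/- against WT (Dusp5 and Dusp10), where 2.38% of all genes or transcripts did. In p53-/- against WT 1 fell (Dusp10), with 1.54% of all genes, and in Aspp1-/- against WT 0 fell, with 2.13% of all genes. In Aspp1-/-p53-/- cells 1 fell against p53-/- (Dusp5), with 3.26% of all genes, and 2 fell against Aspp1-/- (Dusp5 and Dusp10), with 1.94% of all genes. None rose 2-fold in any of the 5 comparisons. The shares include genes above background on only 1 of the 2 arrays, whereas the brightest probe of every phosphatase was above background on all 4. Among the 19152 genes or transcripts above background on all 4, 269, 105 and 46 fell in Aspp1-/-p53-/-, p53-/- and Aspp1-/- against WT. In Aspp1-/-p53-/- cells 170 of them fell against p53-/- and 184 against Aspp1-/-.

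A difference below 0 by more than 2 scanner errors was found for 6 of 8 phosphatases in Aspp1-/-p53-/- against WT, namely Dusp1, Dusp4, Dusp5, Dusp6, Dusp10 and Dusp16, and for 5.56% of all genes. It was found for 4 in p53-/- against WT (Dusp4, Dusp5, Dusp10 and Dusp16; 3.11% of all genes) and for 3 in Aspp1-/- against WT (Dusp4, Dusp10 and Dusp16; 2.77%). In Aspp1-/-p53-/- cells it was found for 3 against p53-/- (Dusp1, Dusp5 and Dusp10; 3.44%) and for 4 against Aspp1-/- (Dusp1, Dusp5, Dusp6 and Dusp10; 4.09%). No phosphatase was higher by more than 2 scanner errors in any comparison. The median difference of the 8 was -0.75 in Aspp1-/-p53-/-, -0.37 in p53-/- and -0.22 in Aspp1-/- cells against WT, while the medians of all genes were 0.02, 0.01 and 0.02. In Aspp1-/-p53-/- cells the median was -0.24 against p53-/- and -0.38 against Aspp1-/-, with 0.01 and -0.01 for all genes. These comparisons share arrays, so they are not separate observations. The members were chosen with earlier results of these data known, so their counts beside those of all genes are no test of the group.

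**Figure D3:**
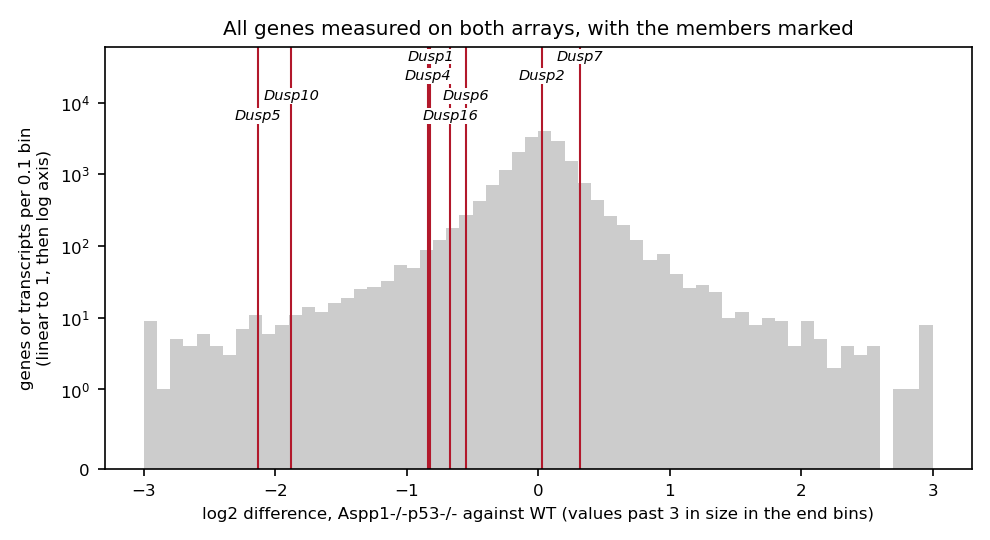
Number of genes or transcripts in bins of 0.1 of the log2 difference between Aspp1-/-p53-/- and WT cells (vertical axis linear to 1 and logarithmic above). Red lines mark the 8 phosphatases. Dusp5 at -2.13 and Dusp10 at -1.88 lie in the sparse left tail, Dusp2 at 0.03 lies in the centre.

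Relative to each array's 75th percentile, the log2 signals of 5 members, Dusp4, Dusp5, Dusp6, Dusp10 and Dusp16, had the same order, lowest in Aspp1-/-p53-/-, then p53-/-, then Aspp1-/- and highest in WT cells. Of 19138 genes, 1676 (8.76%) had that order. The share of probes well above background rose over the arrays in the same order, from 50.3% to 53.3%. Not all steps in it exceeded the scanner error: Dusp10 differed by more than 2 scanner errors at each step, whereas for Dusp4 and Dusp16 the 3 mutants differed from each other by 0.25 or less, and for Dusp6 the Aspp1-/- and WT arrays differed by 0.05. The Dusp10 step from p53-/- to Aspp1-/-p53-/- was -0.51, with a scanner error of 0.24. Of the 1928 genes of similar brightness, Dusp10 included, 155 were as low or lower. With normexp correction that step was -0.26.

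The members differed in how the double mutant related to the single ones. For Dusp10 the 2 single differences from WT summed to -1.99, and the double mutant was at -1.88. For Dusp5 they summed to -1.23 and the double mutant was at -2.13, a departure of -0.90, with a scanner error of 0.29. For Dusp1 the sum was -0.06 and the double mutant was at -0.82, a departure of -0.77. These 2 departures exceeded 2 scanner errors; 1.44% of 19138 genes departed as far down or farther than Dusp5 and 1.98% than Dusp1. Dusp4 (0.54) and Dusp16 (0.41) departed upwards, with single differences that summed to -1.38 and -1.08, and Dusp6 departed by -0.31, none of them by more than 2 scanner errors. The departures had a median of -0.06 over the 8 members and of -0.01 over all genes.

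**Figure D4:**
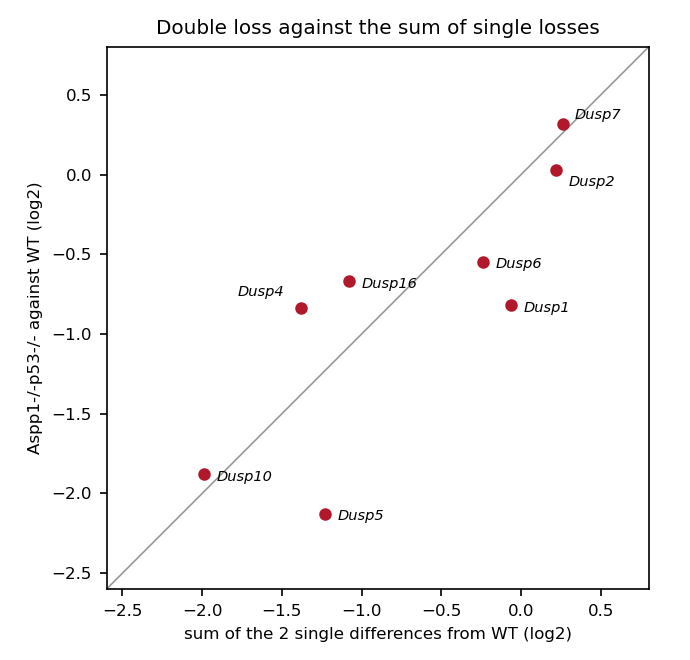
Log2 difference of Aspp1-/-p53-/- from WT (vertical axis) against the sum of the p53-/- and Aspp1-/- differences from WT (horizontal axis), 1 point per phosphatase, each from single arrays. The line marks equality. Dusp10 lies near it, Dusp5 and Dusp1 lie below it (departures of -0.90 and -0.77), and Dusp4 lies above it by 0.54.

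A model over the 4 arrays that treats the 2 losses as additive has 1 residual degree of freedom, and the departure from additivity serves as its error. In this limma model of 19152 genes, 0 genes passed a Benjamini-Hochberg adjusted p of 0.05 for either loss, the deleted Trp53 (adjusted p = 0.308) and Ppp1r13b (adjusted p = 0.537) included. At an unadjusted p under 0.05, 2351 genes (12.3%) were called for loss of p53 and 1646 (8.59%) for loss of Aspp1. The p53 loss term of Dusp10 in limma was -1.31 with a standard error of 0.07 (adjusted p = 0.308), and its Aspp1 loss term was -0.56 with a standard error of 0.07 (adjusted p = 0.571). For Dusp5 the limma terms were -1.29 for p53 (adjusted p = 0.322) and -0.83 for Aspp1 (adjusted p = 0.571), each with a standard error of 0.26.

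The genes whose 4 values, centred on their mean, lay nearest to those of a member were sought among the 13313 genes named through RefSeq that were above background on all arrays. Nearest to Dusp5 were Plk2, a polo-like kinase gene, at a distance of 0.122 on the log2 scale, Plaur, the urokinase receptor gene, at 0.158, and Pmaip1, the gene of the death-promoting BH3 protein Noxa, at 0.184. Plk2 differed from WT by -2.06 in Aspp1-/-p53-/-, -0.74 in p53-/- and -0.44 in Aspp1-/- cells. Nearest to Dusp10 were Trib1, a pseudokinase gene, at 0.147, Ppp2r3d, a regulatory subunit gene of protein phosphatase 2A, at 0.187, and Tnfaip3, which encodes the NF-kappaB inhibitor A20, at 0.197. Tnfaip3 differed from WT by -2.03 in Aspp1-/-p53-/-, -1.24 in p53-/- and -0.66 in Aspp1-/- cells. The likeness rests on 4 arrays.

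The kinases that these phosphatases act on were counted by cascade. Of 11 genes of the ERK cascade, from Ras to ERK, 0 passed 2-fold in any comparison, and their differences of Aspp1-/-p53-/- from WT lay between -0.20 (Ksr1, a scaffold) and 0.28 (Hras). Of 13 measured genes of the JNK and p38 cascades none passed 2-fold in that comparison either, with Mapk8, which encodes JNK1, at 0.55 and Map2k7, a JNK kinase, at -0.40. Mapk10, which encodes JNK3, was well above background in Aspp1-/- cells alone, at 0.83 or higher against WT, so its size there is only bounded. Transcript levels say nothing of kinase activity.

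Other feedback inhibitors were mixed. Among 7 Sprouty and Spred genes, which restrain Ras and Raf signalling, 5 were above background. In Aspp1-/-p53-/- against WT, where 2.38% of all genes or transcripts fell, 1 of them did. That gene was Spry1, with signals of 1743 in Aspp1-/-p53-/-, 3801 in p53-/-, 6281 in Aspp1-/- and 7361 in WT cells. Its difference from WT was -1.98 in Aspp1-/-p53-/-, -0.98 in p53-/- and -0.29 in Aspp1-/- cells, and it fell by 1.69 in Aspp1-/-p53-/- relative to Aspp1-/- cells. Spred3 was at 0.49 in Aspp1-/-p53-/- against WT.

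Among 13 further DUSP genes, 11 were above background, none fell and 1 rose in Aspp1-/-p53-/- against WT. Of all 21803 genes or transcripts in that comparison, 520 fell and 779 rose. The 1 DUSP gene that rose was Dusp8, a JNK and p38 phosphatase, at 3.12, but its 3 probes disagreed. The brightest probe gave 257 in Aspp1-/-p53-/-, 12.5 in p53-/- (not well above background), 27.1 in Aspp1-/- and 31.6 in WT cells. A second probe ran the other way, with 6.42 in Aspp1-/-p53-/- and 24.2 in p53-/- cells (neither well above background), 63.2 in Aspp1-/- and 101 in WT cells. The third was nearly flat, between 34.1 and 40.8, so no direction is given for Dusp8. Dusp18 was at -0.89 in Aspp1-/-p53-/- against WT, and at -1.07 at its other probe.

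Among 9 genes listed as ERK output, 8 were above background. In Aspp1-/-p53-/- against WT, where 2.38% of all genes or transcripts fell, 2 of them did. These were Epha2, an ephrin receptor gene, at -1.10, and Fosl1, an AP-1 subunit gene, which was not well above background in the double mutant and so was at -1.46 or lower. The median of this list was -0.09. In p53-/- against WT 0 of the 8 fell, with 1.54% of all genes.

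Immediate-early genes are transcribed, like Dusp1, within minutes of stimulation. Of 17 listed, 12 fell in Aspp1-/-p53-/- against WT, with a median of -1.28, whereas 3 fell in p53-/- (median -0.45) and 1 in Aspp1-/- (median -0.11) against WT. In Aspp1-/-p53-/- cells 4 of the 15 that were above background fell against p53-/- (median -0.90) and 9 of 17 fell against Aspp1-/- (median -1.03). Of all genes or transcripts, 2.38% fell in Aspp1-/-p53-/-, 1.54% in p53-/- and 2.13% in Aspp1-/- against WT. In Aspp1-/-p53-/- cells 3.26% fell against p53-/- and 1.94% against Aspp1-/-. The lists of this paragraph were chosen with earlier results of these data known. In Aspp1-/-p53-/- against WT the values were -3.48 for Atf3, a stress-induced transcription factor, -1.95 for Klf2 and -1.83 for Nr4a2, and Egr3, not well above background in the double mutant, was at -2.56 or lower. Of 12 listed p53 targets, 6 fell in Aspp1-/-p53-/- (median -0.86), 1 in p53-/- (median -0.58) and 0 in Aspp1-/- (median -0.11) against WT, and 2 fell in Aspp1-/-p53-/- against p53-/- (median -0.15) and 5 against Aspp1-/- (median -0.73). In Aspp1-/-p53-/- against WT the lowest of these p53 targets were Plk2 at -2.06 and Pmaip1 at -1.99. Next were Cdkn1a, which encodes the cell cycle inhibitor p21, at -1.53 and Btg2, an antiproliferative gene, at -1.37. Plk2 and Pmaip1 are also among the genes nearest to Dusp5. That likeness was taken from the same arrays, so the overlap is no separate observation.

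**Figure D5:**
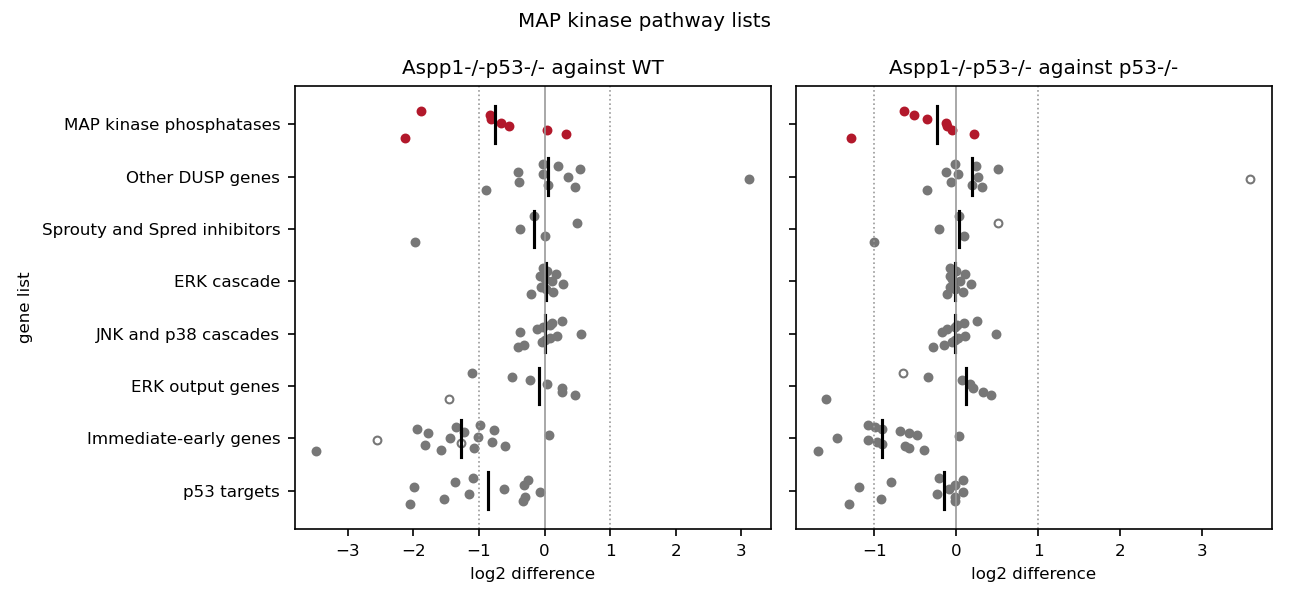
Log2 differences of the genes of 8 lists (rows) in Aspp1-/-p53-/- against WT (left) and against p53-/- cells (right), each from single arrays. Points are genes, open points are bounds, black bars are list medians and dotted lines mark 2-fold. The phosphatases have a median of -0.75 and immediate-early genes of -1.28 against WT, while the ERK cascade stays between -0.20 and 0.28.

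Markers of other cells moved with the double mutant. The 9 granulocyte markers were all lower in Aspp1-/-p53-/- cells than in each other genotype, with medians of -1.69 against WT, -1.53 against p53-/- and -1.43 against Aspp1-/-. In p53-/- and Aspp1-/- cells against WT the granulocyte medians were -0.19 and -0.20. Of 6 stromal and endothelial markers 4 were above background, with summed signals of 1552 in Aspp1-/-p53-/-, 2132 in p53-/-, 1993 in Aspp1-/- and 2417 in WT cells and a median of -1.31 in Aspp1-/-p53-/- against WT, while Cdh5 and Col1a1 were not above background on any array. Monocyte, B cell, T and NK cell and megakaryocyte lists had medians between -0.22 and 0.26 in that comparison, and Pax5, Cd3g, Cd8a and Ncr1 were not above background on any array. The part of granulocyte or stromal transcripts in the lower phosphatase signals of Aspp1-/-p53-/- cells was not tested.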

How the data were processed

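LSK cells of 4 genotypes were profiled on 4 Agilent mouse arrays of 1 colour, 1 array per genotype with RNA pooled from 3 mice. Per the file headers, Feature Extraction 10.7.3.1 produced the deposited intensity columns (processed signal, mean signal and background) and the background and saturation calls, and probe positions are those of mm9. The authors' deposited value table holds log2 values. Its differences between arrays matched those of the scanner files (r = 1.0 over 26465 probes), and its direction and scale follow from that match. Its values were taken as centred per probe, with column medians from -0.0661 to 0.0478. How that centring was done stays unknown here. The exon or UTR of a probe was not analysed here.

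Spots of a probe were averaged, log2 processed signals were taken relative to each array's 75th percentile, and a gene was represented by its brightest probe above background. Probes were named through RefSeq (GRCm38.p6) accessions (26760) or symbols (3818), and the other 25097 kept the file's name. Where 1 of 2 arrays was not well above background the difference is a bound. All genes or transcripts were counted by the same rules. limma 3.58.1 in R 4.3.3 fitted the additive model, and its script was tested on simulated data. Promoters are RefSeq's. With 1 array per genotype the number of arrays limits the precision, and p-values measure only the residual of 4 pools.

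All 8 members are named with every array's value, and each list names up to 4 genes past 2-fold by size, or up to 2 of largest difference where fewer pass. The members and the lists were chosen with earlier results of these data known. Alternatives were normexp background correction (offset 50), quantile normalization, probes above background on all arrays, the mean over a gene's probes and the authors' value table.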

Additional observations from a re-analysis of the deposited data

Results flagged for a closer look

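Dusp1 had differences of opposite sign with loss of Aspp1. The difference was -0.64 without p53 (Aspp1-/-p53-/- against p53-/-) and 0.12 with p53 (Aspp1-/- against WT), and these differ by -0.77. Dusp2 had differences of opposite sign for both losses. With loss of Aspp1 it was -0.11 without p53 and 0.07 with p53, and with loss of p53 it was -0.04 without Aspp1 (Aspp1-/-p53-/- against Aspp1-/-) and 0.14 with Aspp1 (p53-/- against WT), and each pair differs by -0.18. With 1 array per genotype these differences between differences were not tested. That of Dusp1 exceeded 2 scanner errors and that of Dusp2 did not.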

How the results depend on the processing

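None of the 40 differences of the 8 phosphatases changed sign under any of the 5 alternatives, but only normexp correction and quantile normalization could alter all 8. The restriction to probes above background on all arrays kept the brightest probe of every phosphatase, so it could not move any. The authors' value table holds the same differences between arrays (r = 1.0) and is no separate check. The mean over probes can alter only Dusp7 and Dusp16, which have 2 probes each. Quantile normalization moved none of the 40 past the scanner error. Normexp correction moved 5, namely Dusp5 in Aspp1-/-p53-/- against WT (-1.91) and Dusp10 in 4 comparisons, with -0.26 in Aspp1-/-p53-/- against p53-/- beside those given above. It left 1 of the phosphatases at 2-fold in Aspp1-/-p53-/- against Aspp1-/-. The mean over probes moved 3, all of Dusp16 in Aspp1-/-p53-/- cells. With it 3 phosphatases in place of 2 reached 2-fold lower in Aspp1-/-p53-/- against WT, as Dusp16 was at -1.02. The second Dusp16 probe was not well above background in Aspp1-/-p53-/- cells, so these means rest partly on background. The counts of all genes at 2-fold lower depend on how dim probes are treated. For the 3 mutants (Aspp1-/-p53-/-, p53-/-, Aspp1-/-) against WT they were 520, 337 and 463, and for the double mutant 695 against p53-/- and 419 against Aspp1-/-. In the same order they were 211, 117, 90, 284 and 179 with normexp and 269, 105, 46, 170 and 184 with probes above background on all arrays. With the authors' table, where measured differences replace bounds, the double mutant had 932 against WT and 772 against Aspp1-/-, and p53-/- had 628 against WT. The limma model called 1 gene for loss of Aspp1 with normexp, against 0.

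No paired analysis was possible because each genotype has 1 array. The slide as a block was not run because all arrays share 1 slide. No value has a spread between mice, and loss of p53 cannot be told apart from Mx1-Cre or slide row. Of the members, Dusp10 moved most with the background correction.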
